A study of Larix kaempferi with 6 samples.

Results

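Transcripts that differed among watered shoot tips of Japanese larch, Larix kaempferi, a conifer that sheds its needles, are described here. They were chosen from 3 libraries of watered seedlings, named CK-1, CK-2 and CK-3. A transcript was a member if it had at least 20 FPKM (fragments scaled per kilobase of transcript and by library size) in one or more CK libraries, and if CK-3 was at least 4 times the higher, or at most 0.25 times the lower, of CK-1 and CK-2. Of 12228 transcripts, 6870 reached 20 FPKM in a CK library and 326 were members, 102 of them high in CK-3 and 224 low in CK-3. The CK values chose the members, so every difference between CK-3 and the other CK libraries is given as a description, with no test.

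The libraries came from RNA of the top 3 cm of seedlings aged 4 months, grown 1 to a pot in a greenhouse with soil water kept at 70% of field capacity or more. The CK seedlings stayed watered, and the D14 seedlings, in 3 further libraries, went 14 d without watering. The labels name no genotype or seed source and leave unsaid whether the libraries were made from separate plants, so a p-value here reflects the spread between libraries, part of which may be technical. The files pair no transcript with a gene name, so no function is given, and the labelled tissue could not be checked against marker genes.

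As background, the tip of a conifer seedling holds the apical meristem, young needles and elongating stem, and RNA from it is a mixture of these cell types. Water shortage slows growth of such tips and is known to raise transcripts of abscisic acid signalling and of protective proteins. In a mixed tissue, fewer cells of a type and less RNA per cell cannot be told apart.

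CK-3 stood apart from the other controls as a library. The median log2 difference between CK-3 and the mean of CK-1 and CK-2 was -0.45 over the 9317 transcripts with at least 1 FPKM in at least 3 libraries, so the typical transcript was lower in CK-3 on the FPKM scale. FPKM summed to 1238000 in CK-3 and to 1074000 and 1080000 in the other controls, to 4 digits. With the libraries scaled to equal median ratios, that median moved to 0.01, and the rule then found 180 transcripts high and 131 low in CK-3. These included all 102 high members and 131 of the 224 low members. At equal sums of FPKM the median was -0.64 and the rule found 86 high, all of them members, and 306 low transcripts, including all 224 low members. The balance of low and high members therefore moved with the scaling in both directions. From the size of the steps between low values, 20 FPKM was estimated to stand for 230 to 318.3 fragments on a transcript of 1200 nt and to 55.0 to 76.1 fragments on one of 500 nt.

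The 2 other controls were close to each other at most members. Where both were above 0, the median fold between CK-1 and CK-2 was 1.17 among high members and 1.07 among low members, against 1.05 among all 6870 transcripts with at least 20 FPKM in a CK library. In 14 high members and 1 low member the CK-1 and CK-2 values were at least 2 times apart, 9 of these high members being listed at 0 in one of the libraries, against 34 (0.495%) of the 6870. A further 4 high members were listed at 0 in both. The high members had medians of 9.44 and 10.8 FPKM in CK-1 and CK-2, where fewer fragments lie behind a value than at 20 FPKM. The part of this in the wider fold between CK-1 and CK-2 was not tested.

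**Figure D1:**
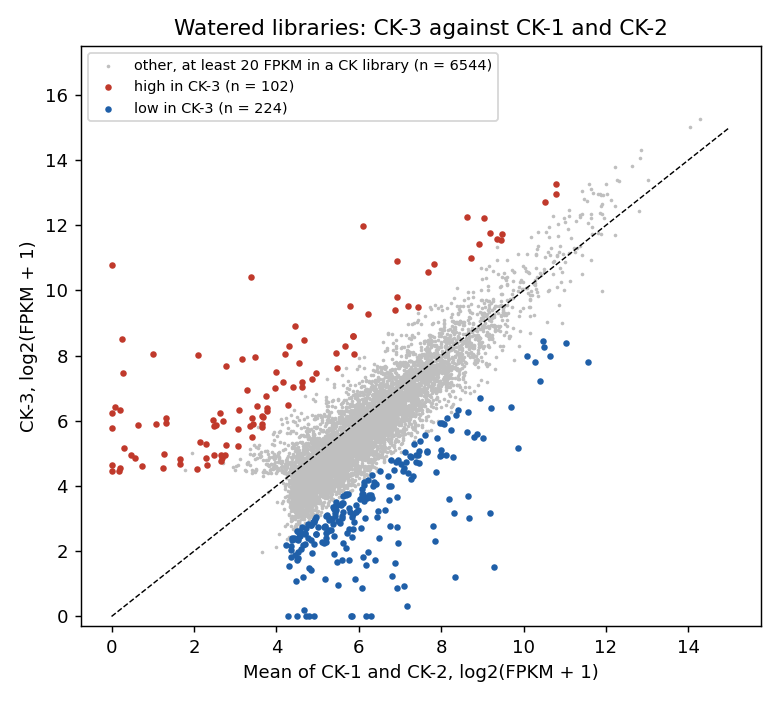
Level in CK-3 (y axis) against the mean of CK-1 and CK-2 (x axis), both as log2(FPKM + 1), with 1 point per transcript and a dashed line of equal level. The 102 transcripts high in CK-3 lie above the cloud and reach down to 0 on the x axis, and the 224 low in CK-3 lie below it.

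Transcripts high in CK-3 had a median of 98.7 FPKM in that library, with a lowest value of 20.95 and a highest of 9815. In D14-1, D14-2 and D14-3 their medians were 29.9, 25.2 and 22.2 FPKM, between the levels of the watered libraries. The median fold of CK-3 over the higher of CK-1 and CK-2 was 7.24 among the 98 members for which that value was above 0, and 50 of the 102 stood at least 8 times apart. Together these transcripts held 6.28% of all FPKM in CK-3, 1.10% in CK-1 and 1.07% in CK-2. In the D14 libraries they held 2.30%, 1.89% and 1.78%. Of the 100 most abundant transcripts of CK-3, 15 were high members and 0 were low members. The rule favours this, since it chose members by their CK-3 value. The 5 most abundant high members made up 43.9% of the high members' FPKM in CK-3.

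Transcripts low in CK-3 had medians of 61.5 and 61.4 FPKM in CK-1 and CK-2 and of 7.46 FPKM in CK-3. Their D14 medians were 30.95, 34.4 and 25.1 FPKM, again between the watered libraries. The median fold by which CK-3 lay below the lower of CK-1 and CK-2 was 6.09 among the 215 members above 0 in CK-3, and 78 of the 224 stood at least 8 times apart. The low members held 3.53% and 3.42% of all FPKM in CK-1 and CK-2 and 0.410% in CK-3. Their share in D14-1, D14-2 and D14-3 was 4.54%, 4.73% and 3.55%. A few abundant transcripts carried these D14 shares, since the 5 with the highest D14 mean made up 58.6%, 53.5% and 42.8% of the low members' FPKM in the 3 libraries.

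**Figure D2:**
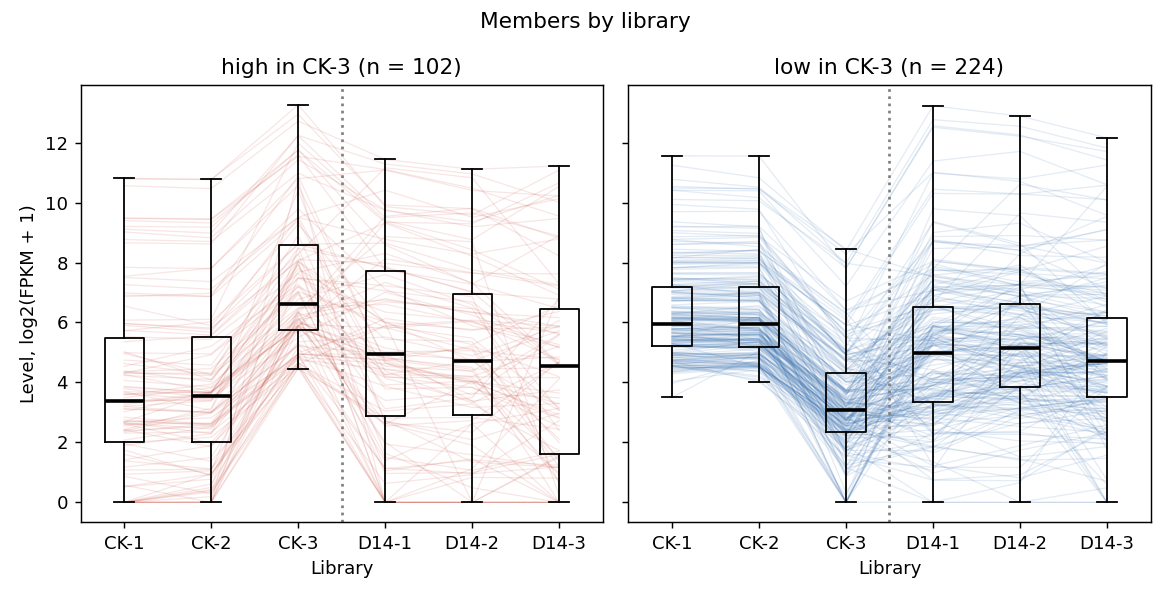
Level of each member as log2(FPKM + 1) (y axis) in the 6 libraries (x axis), with high members on the left and low members on the right. Thin lines are transcripts, boxes span the quartiles with the median as a bar, and whiskers reach the lowest and highest value. The D14 medians lie between CK-3 and the other CK libraries in both panels, and the boxes span a wide range. The lower quartile of D14-3 among high members, 2.09 FPKM, is below those of CK-1 (3.025) and CK-2 (3.083).

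The rule is sharp, while the values form a continuum. Just inside it among high members, a transcript of 491 nt had 180.33, 163.61 and 724.3 FPKM in CK-1, CK-2 and CK-3, and one of 882 nt had 4.26, 6.89 and 28.21. Just outside it, one of 994 nt had 6.36, 4.77 and 25.39 FPKM, and one of 511 nt had 100.07, 107.82 and 416.06. Among low members, those just inside were a transcript of 3406 nt with 41.98, 42.89 and 10.46 FPKM and one of 3149 nt with 48.86, 52.25 and 12.13. Those just outside were a transcript of 2971 nt with 206.73, 224.0 and 51.83 FPKM and one of 890 nt with 20.13, 17.68 and 4.47. A further 45 transcripts were 3 to under 4 times higher in CK-3, and 196 were 3 to under 4 times lower.

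The D14 values, which the rule did not use, were then placed between the watered libraries. A position of 0 is the mean of CK-1 and CK-2 on the log2(FPKM + 1) scale, a position of 1 is CK-3, and a value past 0.5 lies on the CK-3 side. Among the 102 high members, all 3 D14 libraries lay on the CK-3 side in 28 (27.5%), all 3 lay on the CK-1 and CK-2 side in 46 (45.1%), and the libraries were split in 28. Among the 224 low members, these numbers were 66 (29.5%), 77 (34.4%) and 81. The drought libraries as a group thus lay with CK-3 at some members and with CK-1 and CK-2 at others, in both directions. No share over all transcripts was computed for these sides or for the positions below. Whether they are particular to the members was not tested.

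Positions ran without a gap across the midpoint. The median position of D14-1, D14-2 and D14-3 was 0.46, 0.39 and 0.19 among high members and 0.52, 0.31 and 0.41 among low members. In 26 high and 65 low members, at least 1 D14 library was within 0.1 of the midpoint, so the counts of sides depend on where the line is drawn. D14-1 was on the CK-3 side in 50 high and 115 low members. D14-2 was there in 41 and 86, and D14-3 in 37 and 102. All 3 D14 libraries lay beyond CK-3 in 5 high and 20 low members. They lay past the mean of CK-1 and CK-2, on the far side from CK-3, in 21 high and 34 low members.

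**Figure D3:**
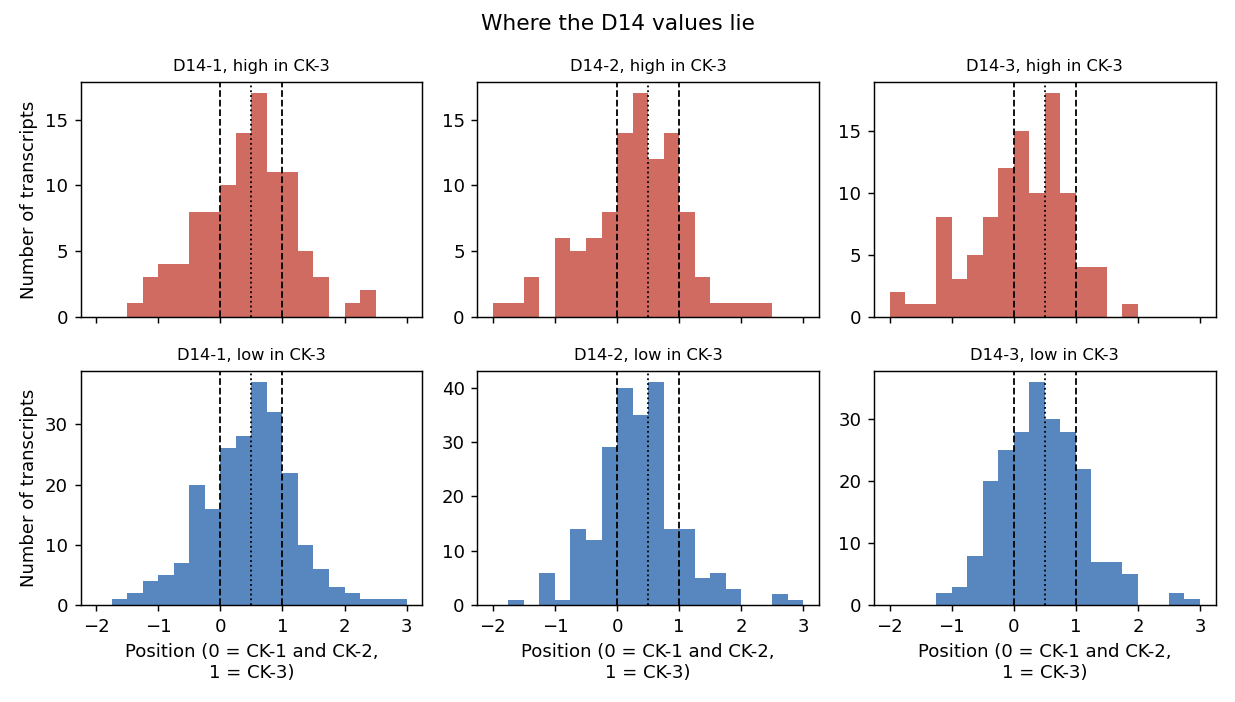
Number of members (y axis) by the position of each D14 library (x axis, no unit), where 0 is the mean of CK-1 and CK-2 and 1 is CK-3 (dashed lines) and the dotted line is the midpoint of 0.5. Values past -2 or 3 are drawn in the end bins. Each of the 6 histograms is broad and spans the midpoint, with medians from 0.19 to 0.52. Not all are a single hump, as D14-3 among high members also has a smaller peak left of 0.

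The drought libraries were next set against CK-1 and CK-2 alone, with CK-3 left aside. All 3 D14 values were at least 2 times the higher of CK-1 and CK-2 in 35 of the 102 high members (34.3%), against 4.34% of the 6870 transcripts with at least 20 FPKM in a CK library. They were at most 0.5 times the lower value in 12 high members (11.8%), close to the 11.3% of the 6870. Among the 224 low members, 81 (36.2%) were at most 0.5 times the lower value and 17 (7.59%) at least 2 times the higher. The median log2 difference of the D14 mean from the mean of CK-1 and CK-2 was 0.96 in high members, -1.17 in low members and -0.15 over the 6870. CK-1 and CK-2 took part in choosing the members, so these shares carry no test.

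The 4 transcripts named here are, in each direction, the most abundant member over 1 FPKM in every D14 library with all 3 D14 values on the CK-3 side, and the most abundant such member with all 3 on the other side. They are described first by their values and then by limma's moderated test of drought against control. It was run over all 9317 tested transcripts, with Benjamini-Hochberg adjustment. The CK values and the side of the D14 values chose these transcripts, so their p-values describe them and are no independent support for a change.

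Lo_f2p60_900_transcript8144_g6, of 900 nt, was high in CK-3 with D14 on the CK-3 side. It had 228.07 and 221.67 FPKM in CK-1 and CK-2, 1777.38 in CK-3, and 2173.8, 1356.24 and 1191.77 in D14-1, D14-2 and D14-3. CK-3 fell within the drought range, so the groups overlapped. The log2 change, drought minus control, was 1.76 ± 0.79 (SE), with a limma adjusted p of 0.162. Without CK-3 the log2 change was 2.75, and no test is given for it, since CK-1 and CK-2 were low and D14 high by the choice of the transcript.

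Lo_f2p60_1369_transcript4259_g3, of 1369 nt, was high in CK-3 with D14 on the other side. It had 1795.38, 1737.09 and 9815.3 FPKM in the 3 CK libraries and 931.9, 766.62 and 2174.19 in the 3 D14 libraries. D14-1 and D14-2 lay below all controls, and D14-3 lay above CK-1 and CK-2. The log2 change of -1.43 ± 0.74 (SE) did not pass the test (limma adjusted p = 0.219). It was -0.61 without CK-3.

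Lo_f14p60_483_transcript33086_g1, of 483 nt, was low in CK-3 with D14 on the CK-3 side. It had 1101.13 and 1066.99 FPKM in CK-1 and CK-2, 250.78 in CK-3, and 186.43, 124.93 and 80.07 in the D14 libraries. Every D14 value was below every control. The transcript fell by 2.43 ± 0.61 on the log2 scale (SE, limma adjusted p = 0.0322). The call was lost without CK-1 (limma adjusted p = 0.0909), CK-2 (0.0913), D14-1 (0.0630), D14-2 (0.101) or D14-3 (0.0736), and with CK-1 and CK-2 averaged (0.0890) or CK-3 as the lone control (0.260).

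Lo_f2p60_2242_transcript723_g2, of 2242 nt, was low in CK-3 and rose in drought, away from CK-3. It had 2428.94, 1814.42 and 335.36 FPKM in the CK libraries and 9590.1, 7565.24 and 4561.47 in the D14 libraries, with no overlap. The log2 change was 2.60 ± 0.75 (SE, limma adjusted p = 0.0493), close to the threshold. It was lost when CK-2 (limma adjusted p = 0.0758), D14-1 (0.147), D14-2 (0.145) or D14-3 (0.0582) was left out. It was also lost with CK-1 and CK-2 averaged (limma adjusted p = 0.0587), equal sums of FPKM (0.0538), no filter (0.0608), no mean-variance trend (0.0530) and a pseudocount of 0.1 (0.0519). Some other low members ran in parallel with the 2242 nt transcript, listed here after their values were seen. One of 1224 nt, also compared, did not. It stood at 1.242 and 1.655 times that transcript's value in CK-1 and CK-2, and at 0.609 to 0.730 times in the remaining libraries. A member of 728 nt had 1752.24, 1460.03 and 251.82 FPKM in the CK libraries and 6963.21, 5971.89 and 3609.2 in the D14 libraries, which is 0.721 to 0.805 times the value of the 2242 nt transcript in every library. A member of 962 nt stood at 0.560 to 0.666 times that value in every library. Whether these transcripts share sequence, and so fragments, was not tested, and they should not be counted as separate observations.

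**Figure D4:**
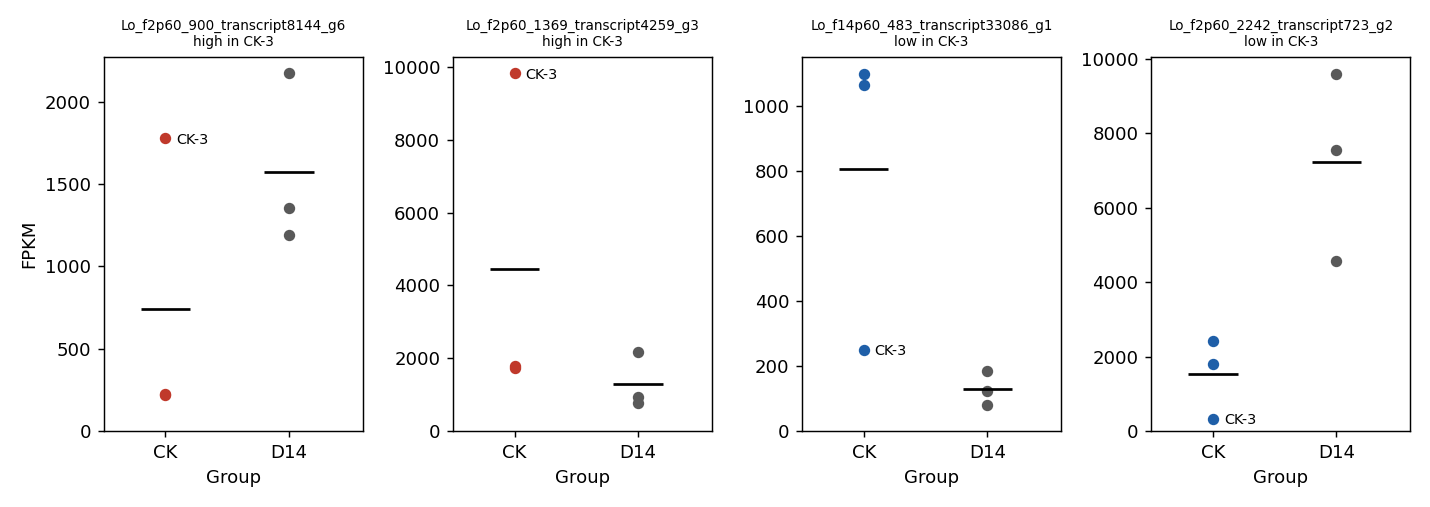
FPKM (y axis, from 0) of the 4 named transcripts in the CK and D14 groups (x axis). Points are libraries, CK-3 is marked and bars are group means. CK-3 lies within the D14 range at the transcript of 900 nt, far above it at that of 1369 nt, and below the other controls at the remaining transcripts, at 250.78 and 335.36 FPKM.

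Some members were close to silent in one set of watered libraries and well expressed in the other. The single transcripts in this paragraph were picked after their values were seen. Under 1 FPKM in both CK-1 and CK-2, 16 high members had 20.95 to 1767 FPKM in CK-3. In 8 of them all D14 libraries were on the CK-1 and CK-2 side, in 4 on the CK-3 side, and 4 were split. A transcript of 417 nt was listed at 0 in CK-1, CK-2 and D14-1 and had 1767.44 FPKM in CK-3, 1.18 in D14-2 and 16.37 in D14-3. A transcript of 637 nt had 0.0, 0.41 and 360.06 FPKM in the CK libraries and 2.11, 0.4 and 0.0 in the D14 libraries. Both were thus high in a single library of the 6.

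Other near-silent members were high in CK-3 and in drought. A transcript of 1345 nt had 0.83 and 0.22 FPKM in CK-1 and CK-2, 28.06 in CK-3, and 69.23, 52.1 and 81.56 in the D14 libraries. A transcript of 876 nt had 0.0, 0.14 and 85.18 FPKM in the CK libraries and 465.9, 413.03 and 0.16 in the D14 libraries, so CK-3 went with D14-1 and D14-2, and D14-3 went with CK-1 and CK-2. A transcript of 461 nt had the same division, with 0.49, 0.0 and 177.58 FPKM in the CK libraries and 148.87, 115.29 and 0.53 in the D14 libraries.

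In the other direction, 15 low members were under 1 FPKM in CK-3, 8 of them with all D14 libraries on the CK-1 and CK-2 side, 3 on the CK-3 side and 4 split. A transcript of 372 nt had 80.74 and 74.48 FPKM in CK-1 and CK-2 and 192.86, 132.11 and 94.67 in the D14 libraries. It was listed at 0 in CK-3 alone. A transcript of 735 nt had 129.06, 111.39 and 0.84 FPKM in the CK libraries and 4.01, 4.02 and 2.81 in the D14 libraries. A low member of 557 nt, above 1 FPKM in CK-3 and so outside these 15, had 593.11, 564.76 and 7.94 FPKM in the CK libraries. It had 7.04, 5.13 and 7.38 in the D14 libraries, with CK-3 just above the narrow drought range. A listed 0 can be a failed estimate, so no fold is given against it.

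The comparison of drought with control over all 6 libraries called members at shares below or near those of all tested transcripts. Of the 96 high members that passed the filter of 1 FPKM in 3 libraries, 5 (5.2%) were higher in drought and 10 (10.4%) lower. Over all 9317 tested these shares were 10.3% and 9.71%. Of the 223 low members that passed, 14 (6.3%) were higher and 16 (7.2%) lower. A wide spread among controls was set by the rule, so these counts describe the members only. The split moved with the setting. Called high members were 3 higher and 11 lower under quantile normalization, and 5 higher and 4 lower at a pseudocount of 10. Called low members were 21 higher and 14 lower at that pseudocount, and 14 higher and 6 lower without CK-1. Leaving out D14-1 or D14-2 left 5 or 4 called high members and 7 called low members each time, and leaving out CK-2 left 18 called low members.

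The control arm was then changed, with counts given as a description because the rule used the same CK values. Against CK-1 and CK-2 alone, 35 of the 96 high members were higher in drought and 12 lower, with 11.8% and 16.4% of all tested. Of the 223 low members, 24 were higher and 89 lower. Against CK-3 alone, where the single control is assumed to vary like the drought libraries, 1 high member was higher and 19 were lower, with 3.16% and 1.53% of all tested. There, 51 low members were higher and 3 lower. The balance of called directions therefore followed the watered library used, as the rule fixes for values that lie between them. Some members changed in the same direction whichever was used, such as those of 713 nt and 1003 nt given below. Without overlap between the 3 D14 and all 3 CK values, 5 of the 96 high members were higher and 19 lower, against 23.1% and 18.7% of all tested, and 34 of the 223 low members were higher and 20 lower.

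Some members moved past every watered library in drought. Those given here have the smallest p within each of the 4 combinations of high or low in CK-3 and higher or lower in drought. That choice was made after the values were seen. A member of 1571 nt, high in CK-3, had 13.62, 11.67 and 78.08 FPKM in the CK libraries and 744.53, 896.62 and 447.71 in the D14 libraries, which is 4.77 ± 0.69 higher on the log2 scale (SE, limma adjusted p = 0.00471). A member of 841 nt, low in CK-3, had 319.13, 340.39 and 70.82 FPKM in the CK libraries and 1.34, 0.76 and 1.98 in the D14 libraries, and fell by 6.43 ± 0.62 (SE, limma adjusted p = 0.00106). A member of 713 nt went the other way from CK-3, with 19.52, 21.0 and 131.12 FPKM in the CK libraries and 0.95, 0.99 and 2.03 in the D14 libraries, and fell by 4.10 ± 0.72 (SE, limma adjusted p = 0.00945). A member of 1003 nt, low in CK-3, rose from 28.85, 31.2 and 4.74 FPKM in the CK libraries to 267.99, 200.64 and 174.07 in the D14 libraries, a change of 3.58 ± 0.65 on the log2 scale (SE, limma adjusted p = 0.0102). In each of the 4, the D14 and CK values did not overlap.

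The members also varied among the drought libraries, which took no part in choosing them. The median fold between the highest and lowest D14 library, on the scale of FPKM + 1, was 2.79 in high members and 2.05 in low members. It was 1.51 over the 6870 transcripts. These were not matched to the members in length or level, and the part of either in this spread was not tested. The same rule was then applied within the D14 group, with each library in turn set against the other two. It found 5 transcripts high and 25 low in D14-1, 1 and 11 in D14-2, and 40 and 209 in D14-3. These are 0.0728%, 0.364%, 0.0146%, 0.16%, 0.583% and 3.04% of the 6866 transcripts with at least 20 FPKM in a D14 library. Within the CK group, 0 transcripts were high and 12 low in CK-1, and 0 high and 7 low in CK-2. Both groups thus had 1 library with most of the transcripts that stood apart, CK-3 and D14-3.

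The lists met unevenly. Of the 25 transcripts low in D14-1, 13 (52.0%) were also low in CK-3, which is 5.80% of the low members. Their lengths ran from 424 to 3307 nt, with a median of 1508 nt. One of 2877 nt had 104.86, 102.16 and 18.74 FPKM in the CK libraries and 9.11, 119.03 and 151.7 in the D14 libraries, and one of 491 nt had 267.17, 284.23 and 29.64, then 39.32, 312.4 and 743.09. With the length trend of each library removed, 20 transcripts were low in D14-1 and 7 of them were low in CK-3. Of the 209 transcripts low in D14-3, 17 (8.13%) were low in CK-3 and another 17 were high in CK-3. These are 7.59% of the low members and 16.7% of the high members, beside 3.04% of all transcripts with at least 20 FPKM in a D14 library.

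Length differed between the directions. High members were short, with a median of 753 nt against 1248 nt for the 6870 transcripts with at least 20 FPKM in a CK library, and low members had a median of 1118 nt. Among transcripts under 500 nt, 27 of 262 (10.3%) were high and 22 (8.40%) low in CK-3. From 500 to under 1000 nt these were 57 (2.84%) and 76 (3.79%) of 2004, and from 1000 to under 2000 nt 17 (0.481%) and 89 (2.52%) of 3537. Of the 1067 transcripts of 2000 nt and over, 1 was high and 37 (3.47%) were low.

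Levels moved with length in most libraries. In transcripts of 2000 nt and over, the log2 level minus its mean over the 6 libraries had a median of -0.70 in CK-3 and -0.40 in D14-1, against 0.24, 0.31, 0.33 and 0.20 in CK-1, CK-2, D14-2 and D14-3. Under 500 nt this median was 0.31, 0.30 and 0.16 in CK-1, CK-2 and CK-3 and -0.09, -0.20 and -0.46 in D14-1, D14-2 and D14-3. Long transcripts were thus lower than short ones in CK-3 and D14-1 and higher in D14-2 and D14-3. The part of these trends in the transcripts low in both CK-3 and D14-1 was not tested. With the trend removed from each library, 128 transcripts were high in CK-3, including all 102 members, and 144 were low, all of them among the 224. Of the 1007 transcripts of 2000 nt and over at that setting, 9 (0.894%) were low, and under 500 nt 31 of 255 (12.2%) were high. This removal also evens out the offset of each library, so length and offset cannot be told apart in the 80 low members that were lost.

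**Figure D5:**
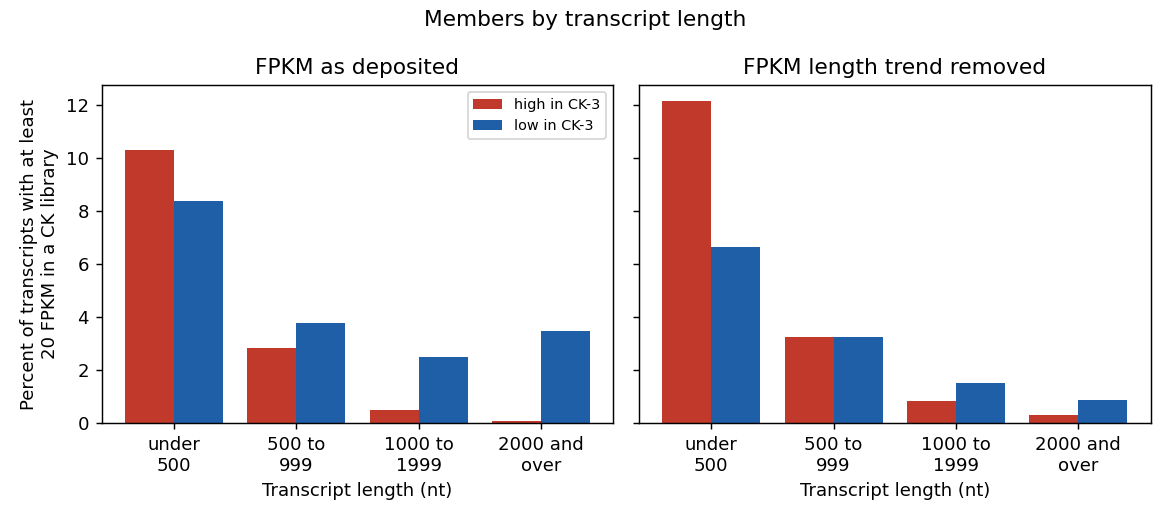
Share of transcripts with at least 20 FPKM in a CK library (y axis, percent, from 0) that were high or low in CK-3, by transcript length in nt (x axis), for FPKM as deposited and with the length trend of each library removed. High members are most frequent under 500 nt on both sides, at 10.3% and 12.2%, and the share of low members at 2000 nt and over is 3.47% on the left and 0.894% on the right.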

How the data were processed

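The authors deposited FPKM values, as the column is called per the file headers, in 1 table per library covering 12228 transcripts, with 2 decimals. HTSeq 0.6.0, HISAT2 2.1.0 and Bowtie2 2.2.3 are listed per the submitters' processing notes, without roles. The calculation of FPKM, strand use and the handling of shared fragments: not given in the sources used here. Groups and replicate numbers came from the sample titles. Transcript length was taken from the identifier (the number ahead of "transcript").

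The members, lists and tests were chosen with earlier results of these data known. Drought was compared with control by limma 3.58.1 (R 4.3.3) with a mean-variance trend on log2(FPKM + 1), over the 9317 transcripts with at least 1 FPKM in at least 3 libraries, Benjamini-Hochberg threshold 0.05. The pseudocount understates changes of low transcripts. Length trends were fitted by lowess (statsmodels 0.14.6, span 0.3). Named transcripts followed the rule stated with them; others are described as picked afterwards. The gene lists set up could not be matched to identifiers.

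Depth was estimated by fitting a step and a length offset of 270 to 280 nt to values under 6 fragments. These gave 12500000 to 17300000 fragments, with 52.8% to 65.7% of 208 to 342 such values whole within 0.1 fragment (20% if spread evenly). Whole reads were thus not recovered and no count test or counting interval was used. Deviations of same-numbered libraries from their group means had correlations of -0.15, 0.23 and -0.03. Differently numbered libraries were not compared, so these cannot show whether the numbers mark pairs. The numbers were not taken as pairs in the main fit. Alternatives covered the rule, scaling, length, pseudocount, filter and single libraries.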

Additional observations from a re-analysis of the deposited data

How the results depend on the processing

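The counts of members followed the rule and the scaling. At 50 FPKM, 130 transcripts were low in CK-3; all D14 libraries lay on the CK-3 side in 18 high and 40 low members and on the CK-1 and CK-2 side in 49 low members. At 3 times apart, 420 were low, 70 high members had D14 on the CK-1 and CK-2 side, and the low members had 152 and 123 on the CK-3 side and the other side. At 8 times apart, 50 were high (15 and 20 on these sides) and 78 low (14 and 37). Equal upper quartiles gave 73 high members on the CK-1 and CK-2 side and 43 low members on the CK-3 side, and equal median ratios gave 180 high, 131 low, 89 and 33 for these. With the length trend removed, 144 were low, 41 of them on the CK-3 side. Counting as neither side the middle part of the interval left 18 high and 40 low members on the CK-3 side. The cause of these shifts was not tested, beyond the stricter or looser rule itself. All transcripts called in drought numbered 1860, and 928 with CK-1 and CK-2 averaged, 437 against CK-3 alone, 2833 with the length trend removed, 701 at a threshold of 0.01, and 742 to 2623 with 1 library left out. Called high members numbered 15, and 9 at a pseudocount of 10, 3 at the 0.01 threshold and 4 to 47 with 1 library left out. Called low members numbered 30, and 18 with averaged controls, 54 against CK-3 alone, 4 at the 0.01 threshold and 7 to 113 with 1 library left out. With the replicate number as a block, 1428 transcripts were called, 13 high and 30 low members among them, and Lo_f2p60_1369_transcript4259_g3 reached a limma adjusted p of 0.0457 (range over alternatives 0.0457 to 0.468). The log2 change of Lo_f2p60_900_transcript8144_g6 turned to -0.23 against CK-3 alone (limma adjusted p = 0.781), since CK-3 lies within its drought range. The 4 members given by smallest p, 1 for each combination of direction in CK-3 and in drought, kept their call under 20 alternatives each. The exception was that of 1003 nt at the 0.01 threshold (limma adjusted p = 0.0102). Their limma adjusted p over all of these reached 0.0498. They were picked for a small p, so this is a description. The mean share of FPKM of high members in the controls ran from 1.08% to 3.69% with 1 control left out, lowest without CK-3. Removing the length trend, and the D14 repeat of the rule under it, were partly chosen after seeing the data, and took the transcripts low in both D14-1 and CK-3 from 13 to 7. The lower of the compared values rested on fewer fragments in both directions. Its medians were 9.44 and 10.8 FPKM in CK-1 and CK-2 for high members and 7.46 FPKM in CK-3 for low members.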

Other observations

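A pair of long low members, picked after their values were seen, shared a broad pattern across the libraries. A transcript of 2018 nt had 654.5, 584.38 and 1.86 FPKM in the CK libraries and 48.3, 94.25 and 45.58 in the D14 libraries. A transcript of 1987 nt had 309.36, 340.57 and 1.31, then 46.08, 97.27 and 59.94. In both, D14 lay between CK-3 and the other controls, with D14-2 the highest of the drought libraries. The pair differed in the order of the other controls and in that of the remaining drought libraries.

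The identifiers carry a number after the letter f, whose meaning the labels do not give. It was 2 in 47.1% of high members, 63.0% of low members and 54.7% of the 6870 transcripts with at least 20 FPKM in a CK library. The highest were 84 in high members and 66 in low members.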
